A study of Homo sapiens with 12 samples.

Results

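The transcripts of 10 human mucin genes were followed in 12 polyA-selected RNA-seq libraries of PDAC (pancreatic ductal adenocarcinoma) cell lines. The members were chosen by gene symbol alone, from the 48114 genes listed for both lines, and all 10 symbols (MUC1, MUC2, MUC4, MUC5AC, MUC5B, MUC6, MUC13, MUC16, MUC17 and MUC20) were found once. The symbols use no measured value, but the choice of mucins was made with earlier results of these data known. PANC-1 cells, an epithelioid carcinoma line that the study uses as basal-like, had been silenced for 48 h with siRNAs against QKI (siQKI), with siRNAs against RBFOX2 (siRBFOX2), both at 40 nM, or with a control siRNA (siCtrl). HPAF-II cells, an adenocarcinoma line that the study uses as classical, had received siCtrl for 48 h. Each of the 4 groups held 3 libraries that the submitters describe as biological replicates. All groups share the transfection and the growth medium, each line stands for 1 tumour, and the HPAF-II libraries used here hold no knockdown of QKI or RBFOX2. QKI and RBFOX2 are RNA-binding proteins that regulate splicing, and the comparisons ask how mucin transcripts differ when either is depleted and how they differ between a basal-like and a classical line.

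Mucins are large glycoproteins whose central domains carry dense O-linked glycans on serine- and threonine-rich repeats. The gel-forming mucins MUC2, MUC5AC, MUC5B and MUC6 are secreted, crosslink through disulfide bonds and make up mucus, whereas MUC1, MUC4, MUC13, MUC16, MUC17 and MUC20 are anchored in the cell membrane, where their extracellular parts cover the cell surface and can be shed. In the pancreas, MUC1 and MUC6 belong to normal ducts and glands, while MUC4, MUC5AC and MUC16 are known for their appearance in pancreatic cancer and its precursors. MUC16 carries the CA125 antigen, and MUC1 is a carrier of several tumour-associated glycan epitopes.

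The knockdowns were checked on the targeted transcripts. Normalised counts, meaning counts per gene after division by the library's size factor, were for QKI 25533 ± 869 in siCtrl and 5034 ± 412 in siQKI libraries (mean ± SD, n = 3), and those of RBFOX2 were 15429 ± 76.8 in siCtrl and 2095 ± 352 in siRBFOX2 libraries. Each target was also read in the other knockdown. RBFOX2 had 12642 ± 129 in siQKI libraries, a log2 fold change of -0.29 against siCtrl (SE 0.09, limma adjusted p = 0.0207), and QKI had 28016 ± 1149 in siRBFOX2 libraries, where the difference did not pass the threshold (0.13, SE 0.06, limma adjusted p = 0.105). Summed values, in units of 1000000, were 322 to 348 per PANC-1 library and 279.8 to 287 per HPAF-II library. The smallest step of these values is not a sequenced fragment, so the depth in fragments is unknown, and precision was taken from the replicates. For levels across lines, values were scaled to sum to 1000000 in every library, and the result is called the rescaled value below. The 6 epithelial markers summed to 2547 to 2640 rescaled units in siCtrl, 2556 to 2713 in siQKI and 2130 to 2287 in siRBFOX2 libraries of PANC-1, and to 10342 to 10732 in HPAF-II libraries, all 6 being above 0 in each group. The 4 mesenchymal markers summed to 5376 to 5567 in siCtrl, 5138 to 5293 in siQKI and 5492 to 5542 in siRBFOX2 libraries of PANC-1. Their sum was 1.21 to 16.4 in HPAF-II libraries, where CDH2 was listed at 0. The 5 leukocyte markers had sums of 117 to 169 in the PANC-1 and of 78.1 to 107 in the HPAF-II libraries, nearly all of it CD68, while PTPRC, the marker of all leukocytes, was listed at 0 in every group but siRBFOX2 (mean normalised count 8.32). The 4 endothelial markers summed to at most 0.331.

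Mucin genes lie in a few clusters of the genome, and their repeats and neighbours limit what a gene-level count can resolve. Coordinates are those given with the authors' gene values (hg38), and strands are those of the GENCODE 29 annotation. MUC6 (chr11:1012822-1036718, minus strand), MUC2 (chr11:1074875-1110508), MUC5AC (chr11:1157953-1201138) and MUC5B (chr11:1223066-1262172, all 3 on the plus strand) form a single run on chromosome 11. MUC20 (chr3:195720882-195734954, plus strand) and MUC4 (chr3:195746765-195812278, minus strand) are adjacent on chromosome 3, where MUC13 (chr3:124905442-124934751, minus strand) also lies. MUC1 (chr1:155185824-155192916, minus strand), MUC17 (chr7:101020081-101058859, plus strand) and MUC16 (chr19:8848844-9065724, minus strand) stand alone among the members. The share of 50-base stretches that occur more than once within the longest transcript was 42.4% for MUC1, 29.2% for MUC5B, 28.3% for MUC4 and 21.4% for both MUC2 and MUC5AC. It was 19.7% for MUC20, 8.60% for MUC17, 1.76% for MUC6, 1.07% for MUC16 and 0% for MUC13. The authors' handling of repeated and overlapping sequence is not given in the sources used here. The gene row of SLC50A1 spans all of MUC1 and that of VGF all of MUC17, MUC5B overlaps MUC5B-AS1, and MUC20 lies within the long noncoding gene MUC20-OT1. For these 4 mucins, reads of the neighbour and of the mucin may not be separable, and all their values below carry that limit.

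Promoters are shown for 3 members that the results below turn on: MUC1, the highest member per kb in both lines, MUC16, which passed the threshold in both knockdowns, and MUC13, which was listed at 0 in PANC-1 siCtrl libraries and was high in HPAF-II libraries. RefSeq promoter sequences (GRCh38.p14) were held for 6 of the 10 members, MUC1, MUC2, MUC4, MUC13, MUC16 and MUC17. Each sequence gives the 250 bases before the start of the transcript, 5′ to 3′ on the gene's strand. Capitals mark matches on either strand to 7 motifs. TATAAA is the motif of the TATA box. GGGCGG is the GC box, to which SP factors bind. CCAAT is the binding motif of NF-Y. CAGGTG is the E-box that ZEB and SNAIL repressors recognise. AGATAA and, equally, TGATAA are motifs of GATA factors. TGAGTCA and, on the other strand, TGACTCA are read by AP-1 dimers. TGACGTCA is the cyclic AMP response element, or CRE.
MUC1 promoter, chr1:155192916-155193165, minus strand: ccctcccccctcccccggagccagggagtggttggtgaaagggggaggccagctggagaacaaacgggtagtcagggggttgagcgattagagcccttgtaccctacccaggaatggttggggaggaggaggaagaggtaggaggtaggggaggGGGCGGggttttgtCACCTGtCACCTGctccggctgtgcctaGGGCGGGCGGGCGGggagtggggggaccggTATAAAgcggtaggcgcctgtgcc
MUC16 promoter, chr19:9065752-9066001, minus strand: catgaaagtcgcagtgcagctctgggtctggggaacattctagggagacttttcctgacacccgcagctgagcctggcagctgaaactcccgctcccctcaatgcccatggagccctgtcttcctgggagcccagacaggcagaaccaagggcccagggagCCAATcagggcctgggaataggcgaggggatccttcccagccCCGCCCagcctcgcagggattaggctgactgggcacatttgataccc
MUC13 promoter, chr3:124934752-124935001, minus strand: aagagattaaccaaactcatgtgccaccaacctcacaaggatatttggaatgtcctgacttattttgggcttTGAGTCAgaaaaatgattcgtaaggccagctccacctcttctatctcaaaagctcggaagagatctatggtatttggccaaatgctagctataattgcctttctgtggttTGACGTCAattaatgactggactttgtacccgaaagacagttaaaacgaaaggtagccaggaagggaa

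The MUC1 window held 66.0% GC, 1 TATA box, 4 GC boxes, 3 of which overlap each other, and 2 ZEB and SNAIL E-boxes. Of 34788 promoter windows of the same length, 10.8% held a TATA box, 42.6% a GC box and 17.5% that E-box. The MUC16 window held 61.6% GC, 1 GC box and 1 CAAT box, the latter found in 32.0% of all windows. MUC13 differed in base composition. Its window held 41.6% GC, against a median of 58.0% over all windows, with 1 AP-1 and 1 CRE match, found in 4.21% and 1.64% of windows, and no GC box. The E-box was also found in the window of the second RefSeq start of MUC16, and not in those printed for MUC16 and MUC13. A match describes the letters of the window and is no evidence of binding.

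MUC1 was the highest of the 10 members per kb in both lines. Compared per kb of the longest transcript, its rescaled value was 5.04 ± 0.717 in PANC-1 siCtrl libraries (SD, n = 3), 96.1% ± 1.59 of the summed per-kb level of the 10 members. MUC20 followed at 0.0791 ± 0.115 per kb, but this mean rests on a single library, and its range overlapped that of MUC5AC at 0.0474 ± 0.0106 per kb. MUC5B (0.0319 ± 0.00621 per kb) lay apart from MUC5AC above it and MUC6 below it, whereas from MUC6 through MUC16 and MUC2 to MUC4 each gene overlapped the next, with means from 0.0169 ± 0.00344 to 0.00599 ± 0.00154 per kb. MUC17 stood at 0.00222 ± 0.00172 per kb, and MUC13 was listed at 0 in the 3 siCtrl libraries. Together, the members made up 19.9 to 34.6 of 1000000 rescaled units in PANC-1 libraries. The plot of all libraries shows these low levels and the distance between the lines.

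**Figure D1:**
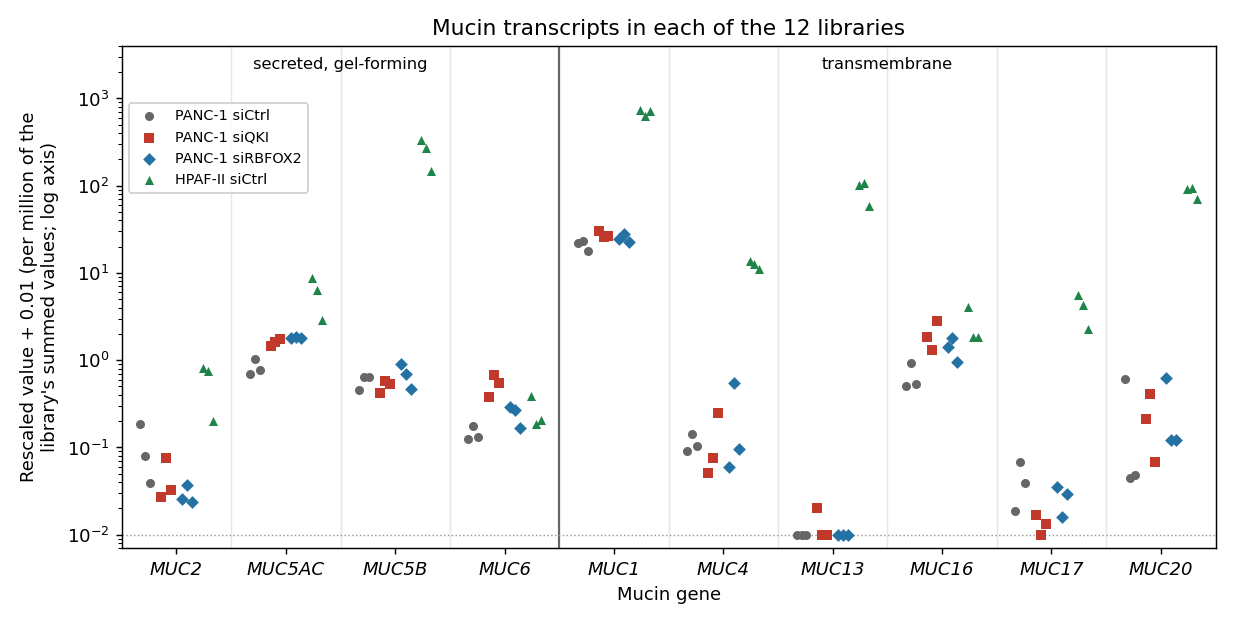
Rescaled value + 0.01 (log axis) of each mucin gene in each of the 12 libraries, coloured by group, with the gel-forming mucins on the left of the heavy line and transmembrane mucins on the right. The dotted line marks a value of 0, where MUC13 lies in 8 of 9 PANC-1 libraries. The HPAF-II libraries lie above the PANC-1 siCtrl libraries for all 10 members.

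QKI depletion was followed by higher levels of 4 mucin transcripts, MUC6, MUC16, MUC5AC and MUC1, and by no lower one. Of the 10 members, 8 were tested, since MUC13 and MUC17 had a mean normalised count under 10 over the 9 PANC-1 libraries. The 4 called rose past an adjusted p of 0.05 (limma), and the siQKI libraries of all 4 lay above every siCtrl library. Across all 22544 genes tested, 33.0% were called (14.9% as higher and 18.1% as lower), and 44.7% had groups that did not overlap. The median log2 fold change was 0.54 over the 8 tested members and 0.03 over all genes tested. Among the gel-forming mucins 2 of 4 rose, and among the transmembrane mucins 2 of 4 tested. In such bulk libraries, more cells that carry a transcript and more transcript per cell cannot be told apart.

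MUC6, a gel-forming mucin of gastric and pancreatic gland mucus, had normalised counts of 39.2, 58.0 and 42.3 in the siCtrl libraries and of 123, 217 and 176 in the siQKI libraries. The lowest siQKI library was above the highest siCtrl library, and the log2 fold change was 1.85 (SE 0.40, limma adjusted p = 0.00211). MUC5AC, the main secreted mucin of airway and stomach surface cells and of pancreatic precursor lesions, had 232, 361 and 263 in siCtrl and 483, 523 and 579 in siQKI libraries. These groups did not overlap either, with a log2 fold change of 0.91 (SE 0.18, limma adjusted p = 0.00117).

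For the other gel-forming mucins the siQKI and siCtrl libraries overlapped. MUC5B, a mucin of airway and gland mucus, had 150.3, 223 and 218 in siCtrl and 137, 186 and 173 in siQKI libraries, a log2 difference of -0.24 (SE 0.29, limma adjusted p = 0.588). MUC2, the mucin of intestinal goblet cells, had 59.4, 24.0 and 10.1 in siCtrl and 5.70, 21.8 and 7.34 in siQKI libraries (log2 difference -1.24, SE 0.99, limma adjusted p = 0.390). The highest of these 6 MUC2 values came from siCtrl replicate 1, without which the log2 difference was -0.62.

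MUC16 showed the largest rise among the 4 transmembrane members tested. Its normalised counts were 168, 324 and 182 in siCtrl libraries and 615, 432 and 925 in siQKI libraries, with a log2 fold change of 1.54 (SE 0.31, limma adjusted p = 0.00113). MUC1 rose by less. It had 7518, 8098 and 6088 in siCtrl and 10077, 8476 and 8600 in siQKI libraries, a log2 fold change of 0.33 (SE 0.10, limma adjusted p = 0.0167). The lowest siQKI value of MUC1 exceeded the highest siCtrl value by little, and its call was lost without siCtrl replicate 3 (limma adjusted p = 0.0920), without siQKI replicate 1 (0.0866) and without a mean-variance trend (0.111).

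The libraries of MUC4 and MUC20 varied more within groups than the group means differed. MUC4, a partner of the receptor ERBB2, had 27.8, 46.0 and 32.2 in siCtrl and 13.7, 21.8 and 78.6 in siQKI libraries (log2 difference -0.25, SE 0.84, limma adjusted p = 0.860). The siQKI mean of 38.0 was above the siCtrl mean of 35.3, against the sign on the log2 scale, and the log2 difference was 0.26 without siQKI replicate 1 and -0.96 without siQKI replicate 3. MUC20, a mucin known to bind the receptor MET, had 204, 12.0 and 13.1 in siCtrl and 67.3, 133 and 18.9 in siQKI libraries (log2 difference 0.76, SE 1.01, limma adjusted p = 0.628). The siCtrl mean of MUC20 rests on replicate 1, without which the log2 difference was 2.06 (limma adjusted p = 0.103), and it was 0.08 without siCtrl replicate 2. MUC13, an intestinal surface mucin, was at 3.42 in siQKI replicate 1 and at 0 in the other siQKI and all siCtrl libraries. MUC17, an intestinal membrane mucin, had 2.87, 20.0 and 10.1 in siCtrl and 2.28, 0 and 1.05 in siQKI libraries, and neither gene was tested.

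**Figure D2:**
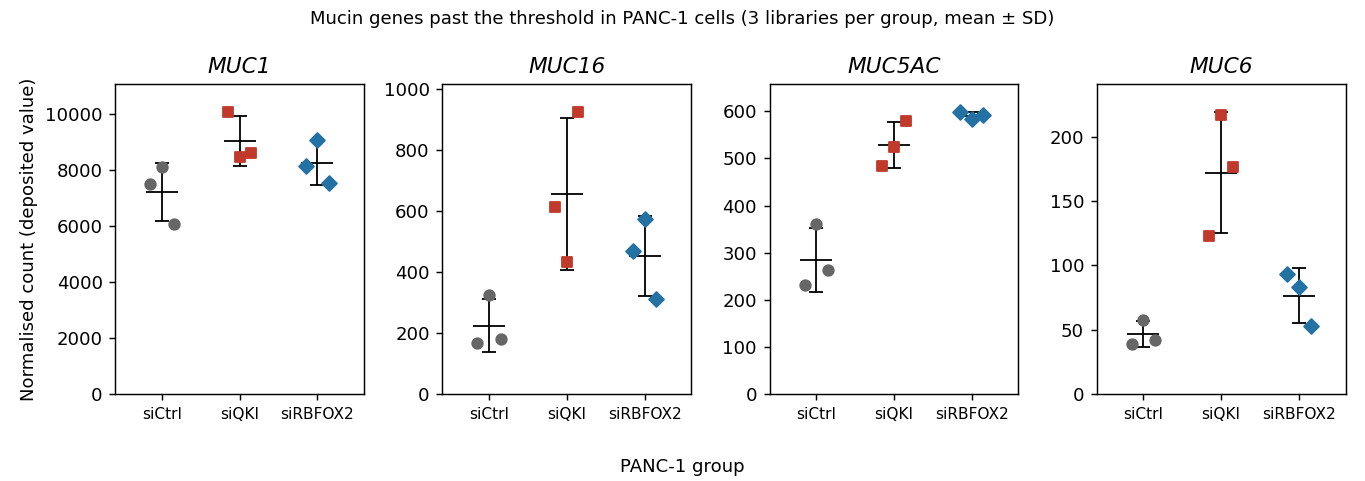
Normalised counts (deposited values) of the mucin genes past the threshold in either knockdown, in the 3 PANC-1 groups, with each library as a point and the mean ± SD of 3 libraries in black. All siQKI points lie above all siCtrl points in the 4 panels, whereas siRBFOX2 points do so only for MUC5AC.

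RBFOX2 depletion was followed by higher levels of MUC5AC and MUC16 and by no lower call. These were 2 of the 8 members tested, where 26.5% of all genes were called (12.0% as higher and 14.5% as lower). MUC5AC had 598, 583 and 592 in siRBFOX2 libraries, all above its siCtrl libraries, and a log2 fold change of 1.08 (SE 0.18, limma adjusted p = 4.59e-04). Its siRBFOX2 libraries had a SD of 7.69 around a mean of 591, the smallest spread relative to its mean of any of the 10 members in any PANC-1 group. MUC16 had 469, 575 and 313 in siRBFOX2 libraries, the last of them below siCtrl replicate 2 at 324. The log2 fold change of MUC16 was 1.03 (SE 0.31, limma adjusted p = 0.0220). This call was lost without siCtrl replicate 1 (limma adjusted p = 0.0859), siCtrl replicate 3 (0.0802), siRBFOX2 replicate 1 (0.0654) or siRBFOX2 replicate 2 (0.0973), and without a mean-variance trend (0.114).

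No other member passed the threshold after RBFOX2 depletion. MUC1 had 8150, 9073 and 7538 in siRBFOX2 libraries (log2 difference 0.20, SE 0.10, limma adjusted p = 0.166), and MUC6 had 93.6, 83.3 and 52.8 (0.69, SE 0.40, limma adjusted p = 0.244). Each overlapped its siCtrl libraries. MUC2 had 5.26, 8.72 and 4.63, below every siCtrl library, with a log2 difference of -1.87 (SE 0.99, limma adjusted p = 0.198). It was, with MUC5AC, 1 of the 2 members whose groups did not overlap, against 37.9% of all genes. MUC4 had 16.8, 172 and 28.7, where the single high library was siRBFOX2 replicate 2, and the log2 difference turned from 0.34 (SE 0.84, limma adjusted p = 0.816) to -0.63 without it. MUC20 had 205, 35.8 and 37.0 (0.98, SE 1.01, limma adjusted p = 0.543), and its log2 difference was 2.29 without siCtrl replicate 1 and 0.16 without siRBFOX2 replicate 1. MUC5B had 299, 223 and 155 (0.16, SE 0.29, limma adjusted p = 0.747), a difference of -0.06 without siRBFOX2 replicate 1. MUC13 was listed at 0 in the 3 siRBFOX2 libraries, and MUC17 had 8.41, 1.94 and 6.48. The median log2 fold change was 0.52 over the 8 tested members and 0.01 over all genes tested. Both knockdowns were set against the same siCtrl libraries, so a high or low siCtrl library moved both comparisons together.

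**Figure D3:**
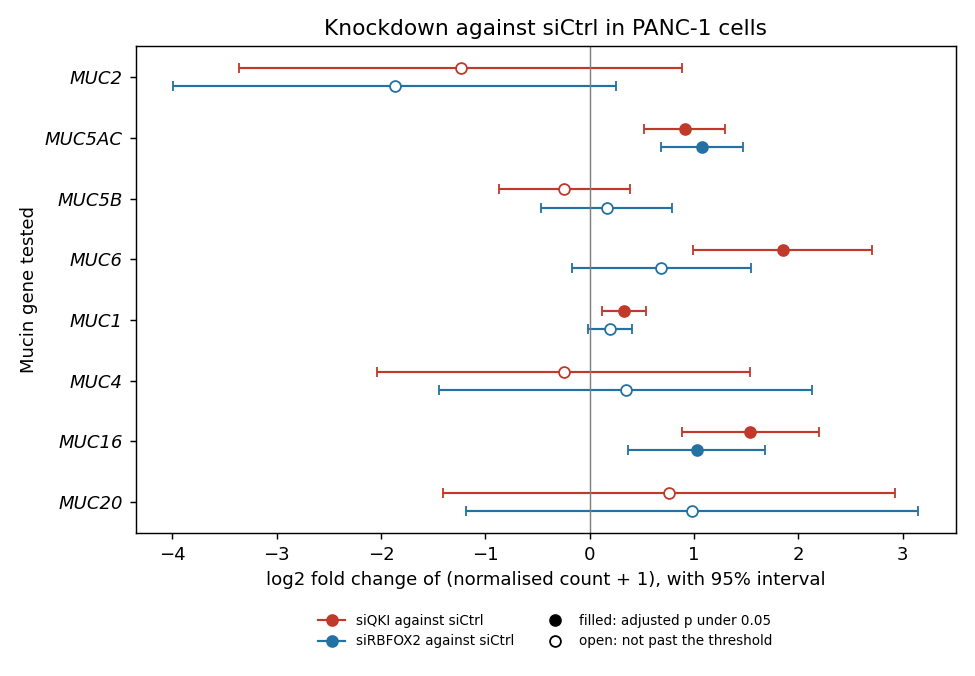
Log2 fold change of (normalised count + 1) with its 95% interval for the 8 mucin genes tested in PANC-1 cells, siQKI (red) and siRBFOX2 (blue) against siCtrl, with filled points past an adjusted p of 0.05. The intervals of MUC2, MUC4 and MUC20 are the widest and all include 0, and those of MUC5AC and MUC16 exclude 0 in both comparisons.

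The knockdowns were also compared directly, without the siCtrl libraries in the contrast. No member differed between siQKI and siRBFOX2 libraries by limma, with 0 of 8 called and 1 at an unadjusted p under 0.05, against 21.5% of all genes called. MUC6 came nearest to the threshold, with 123 to 217 in siQKI against 52.8 to 93.6 in siRBFOX2 libraries, a log2 difference of 1.16 (SE 0.40, limma adjusted p = 0.0517). MUC6 was called under 6 of 17 alternatives, with limma adjusted p-values of 0.0398 to 0.196 over all of them, so the call depends on the setting. For MUC5AC the difference was -0.16 with a 95% interval of -0.56 to 0.23, for MUC16 it was 0.51 with an interval of -0.14 to 1.17, and for MUC1 it was 0.13 with an interval of -0.08 to 0.34.

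The lines differed far more than the groups within PANC-1. In HPAF-II siCtrl libraries, 9 of 10 members were at least 2-fold higher than in PANC-1 siCtrl libraries and none was 2-fold lower. At a 4-fold mark 8 were higher, a count given here without the share over all genes. Of the 24673 genes compared, 52.4% differed at least 2-fold and 27.2% were higher in HPAF-II by that much. For each of the 10 members, every HPAF-II library lay above every PANC-1 siCtrl library, so all 10 were free of overlap, against 63.7% of all genes. The median log2 ratio was 5.82 over the members and 0.08 over all genes compared. The tables of both lines were normalised apart, so no test was made, and the values describe these 2 lines.

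All 6 transmembrane mucins were at least 2-fold higher in HPAF-II, with a median log2 ratio of 6.70, and so were 3 of the 4 gel-forming mucins. The ratios of low genes depend on the pseudocount of 0.01 added to both values. With a pseudocount of 1 the median was 4.29 over the transmembrane and 2.95 over all 10 members, and the ratios of MUC1, MUC20, MUC4 and MUC16 were 4.97, 6.15, 3.61 and 1.12. MUC13 was listed at 0 in the 3 PANC-1 siCtrl libraries, so no fold is given, and had rescaled values of 103, 107 and 59.1 in HPAF-II libraries. MUC20 had 0.602, 0.0344 and 0.0379 in PANC-1 siCtrl and 91.9, 95.3 and 70.2 in HPAF-II libraries, a log2 ratio of 8.51, which became 10.86 without the high PANC-1 siCtrl replicate 1. The lowest HPAF-II library of MUC20 thus lay far above even that library. MUC4 had 0.0819, 0.132 and 0.0932 in PANC-1 and 13.6, 12.8 and 11.0 in HPAF-II libraries, a log2 ratio of 6.79. MUC17 had 0.00848, 0.0574 and 0.0291 in PANC-1 and 5.56, 4.28 and 2.27 in HPAF-II libraries, a log2 ratio of 6.60 that fell to 2.29 with a pseudocount of 1. The row of VGF, which spans MUC17, went the other way, from a normalised count of 1219 in PANC-1 siCtrl to 123 in HPAF-II libraries.

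MUC1, already the leading member of PANC-1 cells, had 22.2, 23.3 and 17.6 in PANC-1 siCtrl and 734, 625 and 715 in HPAF-II libraries, a log2 ratio of 5.04. The row of SLC50A1, which spans MUC1, had normalised counts of 11204 and 18296, a much smaller distance. MUC16 was the transmembrane member with the smallest ratio, with 0.497, 0.930 and 0.527 in PANC-1 siCtrl and 4.05, 1.86 and 1.84 in HPAF-II libraries, a log2 ratio of 1.97. After QKI depletion, MUC16 in PANC-1 cells stood at 1.84, 1.32 and 2.82, within or below the HPAF-II range.

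Among the gel-forming mucins, MUC5B differed most. MUC5B had 0.444, 0.640 and 0.632 in PANC-1 siCtrl and 337, 269.6 and 146 in HPAF-II libraries, a log2 ratio of 8.75. MUC5B-AS1, the antisense gene it overlaps, was listed at 0 in PANC-1 siCtrl and had a mean normalised count of 529 in HPAF-II libraries. MUC5AC had 0.684, 1.04 and 0.761 in PANC-1 siCtrl and 8.86, 6.37 and 2.87 in HPAF-II libraries (log2 ratio 2.85), and MUC2 had 0.175, 0.0689 and 0.0291 against 0.803, 0.742 and 0.194 (log2 ratio 2.54). Among the HPAF-II libraries, replicate 3 held the lowest rescaled value of every member, gel-forming or transmembrane, except MUC1 and MUC6. MUC6 was the only member under the 2-fold mark, with 0.116, 0.166 and 0.122 in PANC-1 siCtrl and 0.379, 0.175 and 0.197 in HPAF-II libraries, a log2 ratio of 0.85. After QKI depletion its rescaled values in PANC-1 cells were 0.370, 0.662 and 0.537, so that 2 of the 3 siQKI libraries lay above every HPAF-II library.

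**Figure D4:**
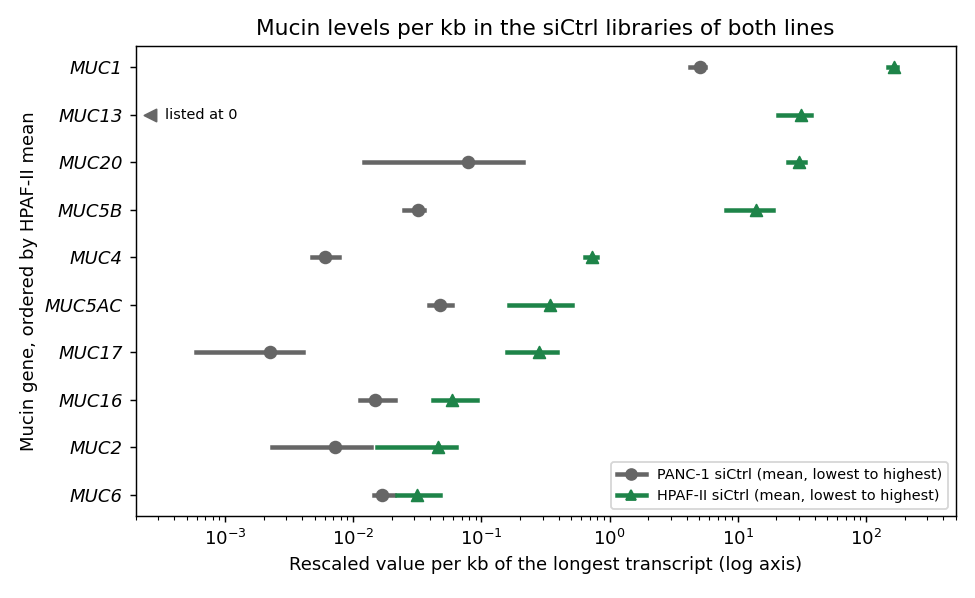
Rescaled value per kb of the longest transcript (log axis) of each mucin gene in the siCtrl libraries of PANC-1 (grey circles) and HPAF-II (green triangles), with the mean of 3 libraries as a symbol and the lowest to highest library as a bar. MUC13 is listed at 0 in PANC-1, MUC1 leads in both lines at 5.04 and 166 per kb, and MUC6 and MUC2 show the bars closest to each other.

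The order of the members also differed between the lines. In HPAF-II libraries MUC1 led at 166 ± 13.9 per kb (SD, n = 3), followed by MUC13 at 31.1 ± 9.21 and MUC20 at 30.2 ± 4.78, whose ranges overlapped. MUC5B came next at 14.0 ± 5.42, well apart from MUC4 at 0.728 ± 0.0766. MUC5AC at 0.346 ± 0.172 and MUC17 at 0.283 ± 0.116 overlapped, as did MUC16, MUC2 and MUC6 at 0.0589 ± 0.0289, 0.0457 ± 0.0265 and 0.0313 ± 0.0140. The share of MUC1 in the summed per-kb level was 68.5% ± 6.59 in HPAF-II libraries, and that of MUC13, MUC20 and MUC5B was 12.8% ± 3.34, 12.4% ± 1.61 and 5.68% ± 1.84. In PANC-1 libraries MUC1 kept 95.3% ± 1.13 after QKI and 95.0% ± 1.77 after RBFOX2 depletion, close to its share in siCtrl libraries. MUC6 moved from the fifth place in siCtrl to the fourth in siQKI libraries, at 0.0653 ± 0.0183 per kb, where its range overlapped those of MUC20 above and MUC16 below it. All 10 members together reached 1008 to 1299 of 1000000 rescaled units in HPAF-II libraries.

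The genes whose levels followed each called mucin most closely over the 9 PANC-1 libraries were taken from 15249 genes with a symbol and a mean of at least 50. For MUC1 these were RARA-AS1, PPP1R1B and SORD (Pearson r of log2 values 0.94 for each), and for MUC5AC they were GPSM1 (0.98), the cholesterol exporter ABCA1 (0.97) and FHIP2A (0.97). MUC6 was followed by PRXL2B (0.99), FRAT2 (0.97) and the epithelial plakin EPPK1 (0.97), and MUC16 by ULK4 (0.97), the proteoglycan BGN (0.96) and PNPLA7 (0.96). These correlations are a description, since the 9 libraries fall into 3 groups whose differences enter every r and the genes were picked as the highest of many.

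Other genes of mucin biology were read from lists drawn up by role, not by change. Of 14 other mucins and mucin-like genes, 13 were listed and 5 tested in PANC-1. In each knockdown 2 of these 5 rose, and 1 fell after RBFOX2 depletion, where 33.0% of all genes tested were called in siQKI and 26.5% in siRBFOX2 libraries. CD164, a small sialomucin of the endolysosomal system, rose from 173946 ± 931 in siCtrl to 287985 ± 5448 in siQKI libraries (log2 fold change 0.73, SE 0.04, limma adjusted p = 2.76e-09) and to 276875 ± 12413 in siRBFOX2 libraries (0.67, limma adjusted p = 1.50e-08). MUC3A, a neighbour of MUC17 on chromosome 7, rose in siRBFOX2 libraries, from 1028 ± 23.5 to 1319 ± 125 (0.35, SE 0.12, limma adjusted p = 0.0395). MCAM, an adhesion molecule also known as MUC18, rose after QKI depletion and fell after RBFOX2 depletion (log2 fold changes 0.25 and -0.33, limma adjusted p = 0.00241 and 3.77e-04). Between the lines, 1 of 6 of these genes compared was at least 2-fold higher in HPAF-II and 2 were lower, where 52.4% of all genes differed by that much. MUCL3 was higher in HPAF-II (rescaled value 0.486 ± 0.236 against 0.00474 ± 0.00433), whereas MCAM (0.985 ± 0.0422 against 28.8 ± 1.02) and MUC12 (0.221 ± 0.162 against 1.43 ± 0.302) were lower.

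Counts of the genes that build mucin O-glycans stand beside 33.0% of all genes called in siQKI and 26.5% in siRBFOX2 libraries. GALNT enzymes start the O-glycan, and of 15 tested in PANC-1, 4 rose and none fell in siQKI libraries, while 5 rose and 2 fell in siRBFOX2 libraries. GALNT16 rose from 206 ± 38.3 to 647 ± 150.5 after QKI depletion (log2 fold change 1.64, SE 0.23, limma adjusted p = 4.62e-05) and to 430 ± 104 after RBFOX2 depletion (1.05, SE 0.23, limma adjusted p = 0.00287). GALNT1 fell from 42368 ± 868 to 26489 ± 968 after RBFOX2 depletion (-0.68, SE 0.04, limma adjusted p = 1.65e-08). Between the lines, 5 of 16 GALNT genes compared were at least 2-fold higher in HPAF-II and 8 lower, and of 18 genes that extend or cap the glycan 7 were higher and 3 lower, where 52.4% of all genes differed by that much. GALNT3 and GALNT5 had rescaled values of 31.8 ± 5.98 and 35.1 ± 5.92 in HPAF-II against 0.00753 ± 0.0130 and 0.0441 ± 0.0478 in PANC-1 siCtrl libraries. Of 15 extending or capping genes tested in PANC-1, 4 rose and 3 fell in siQKI libraries, and 1 rose and 3 fell in siRBFOX2 libraries. GCNT3, the branching enzyme of mucin core structures in mucous epithelia, had 327 ± 80.2 in HPAF-II against 0.0385 ± 0.0382 in PANC-1 siCtrl libraries, and B3GNT6, the synthase of an alternative core, was listed at 0 in HPAF-II against 7.09 ± 0.920.

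Among 15 genes that fold, package or accompany secreted mucins, 10 were tested in PANC-1, and 5 rose and 1 fell in siQKI libraries. Beside these counts, 33.0% of all genes tested were called in siQKI (14.9% as higher) and 26.5% in siRBFOX2 libraries (12.0% as higher). SPDEF, a transcription factor of goblet cell differentiation, went from 492 ± 13.7 to 1024 ± 293 (log2 fold change 1.02, SE 0.18, limma adjusted p = 3.91e-04), and FCGBP, a mucus protein bound to gel-forming mucins, from 1400 ± 229 to 2782 ± 125 (1.0, SE 0.17, limma adjusted p = 3.51e-04). In siRBFOX2 libraries 1 rose and 1 fell, and SPDEF stood at 409 ± 8.30. ZG16B was the gene that fell in each knockdown, from 3959 ± 35.4 to 3154 ± 157 in siQKI libraries (log2 fold change -0.33, limma adjusted p = 0.00113) and to 2520 ± 81.7 in siRBFOX2 libraries (-0.65, limma adjusted p = 4.01e-06). The 6 goblet cell markers, which include SPDEF and FCGBP, summed to 4.99 to 6.23 rescaled units in siCtrl, 11.1 to 12.5 in siQKI and 5.62 to 9.44 in siRBFOX2 libraries. Only FCGBP (mean 4.06 in siCtrl and 8.44 in siQKI libraries) and SPDEF (1.43 and 3.10) raised the siQKI sum. TFF3 (0.306 and 0.290) and ZG16 (0.0124 and 0.000886) did not rise. CLCA1, a product of mature goblet cells, and ATOH1, a factor that specifies secretory lineages of the intestine, were listed at 0 in all groups. The 4 fibroblast markers summed to 11.7 to 13.4 in siCtrl, 25.2 to 28.7 in siQKI and 15.0 to 22.6 in siRBFOX2 libraries, with COL1A1 and PDGFRB higher in both knockdowns and DCN listed at 0 in all PANC-1 groups. CDH1, the epithelial cadherin, rose from 987 ± 16.3 in siCtrl to 2610 ± 382 in siQKI libraries (log2 fold change 1.39, SE 0.11, limma adjusted p = 1.54e-07) and to 1431 ± 107 in siRBFOX2 libraries (0.53, SE 0.11, limma adjusted p = 0.00177). No other of the 6 epithelial markers rose, while 1 fell in siQKI and 3 fell in siRBFOX2 libraries. KRT18 fell in both knockdowns (-0.20 and -0.35, limma adjusted p = 0.00716 and 1.28e-04), and KRT8 fell in siRBFOX2 libraries (-0.23, limma adjusted p = 7.78e-04). CD68 fell in both knockdowns (-0.49 and -0.33, SE 0.05 each, limma adjusted p = 1.14e-06 and 1.01e-04). In the siQKI libraries, where MUC6, MUC16, MUC5AC and MUC1 were higher, the goblet and fibroblast sums and CDH1 were also higher. KRT18 and CD68 were lower there. The mesenchymal markers moved in both directions in siQKI libraries. VIM and ZEB1 were lower (log2 fold changes -0.13 and -0.28, limma adjusted p = 0.0152 and 0.00249) and CDH2 was higher (0.26, limma adjusted p = 5.13e-04). FN1 was not called (limma adjusted p = 0.580). The part of these markers in the mucin result was not tested. In HPAF-II, ERN2, the unfolded protein sensor of mucus-secreting cells, had a rescaled value of 33.2 ± 5.26 against 0.0220 ± 0.0146 in PANC-1 siCtrl libraries. TFF3 was listed at 0 in HPAF-II against 0.306 ± 0.120. Of 12 folding, packaging or accompanying genes compared between the lines, 6 were at least 2-fold higher in HPAF-II and 1 lower, where 52.4% of all genes differed by that much.

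Of 10 receptors, ligands, proteases and other partners of membrane mucins, 8 rose and 1 fell in siQKI libraries, and 3 rose and 1 fell in siRBFOX2 libraries. Over all genes tested, 14.9% rose and 18.1% fell in siQKI libraries, and 12.0% rose and 14.5% fell in siRBFOX2 libraries. ERBB2, the partner of MUC4, rose from 9961 ± 513 to 15910 ± 988 in siQKI libraries (log2 fold change 0.68, SE 0.06, limma adjusted p = 3.20e-07), and EGFR fell from 78581 ± 3163 to 63960 ± 3155 (-0.30, SE 0.04, limma adjusted p = 7.30e-05). Both moved the same way in siRBFOX2 libraries (0.46 and -0.16, limma adjusted p = 2.91e-05 and 0.0108). ADAM17, a protease that can shed MUC1, rose in siRBFOX2 libraries, from 5745 ± 158 to 8487 ± 265 (0.56, SE 0.05, limma adjusted p = 1.79e-06), and in siQKI libraries, to 7407 ± 263 (0.37, SE 0.05, limma adjusted p = 5.92e-05). MSLN, which binds MUC16, had 73.4 ± 29.6 rescaled units in HPAF-II against 1.96 ± 0.794 in PANC-1 siCtrl libraries.

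Genes beside the mucins were read for comparison. Of 12 such neighbours, 8 rose and 1 fell in siQKI libraries, 6 rose and 1 fell in siRBFOX2 libraries, and 4 were at least 2-fold higher and 4 lower in HPAF-II. The shares called over all genes tested were 33.0% in siQKI (14.9% as higher) and 26.5% in siRBFOX2 libraries (12.0% as higher). Between the lines, 52.4% of all genes compared differed at least 2-fold. HEG1, next to MUC13, rose from 14798 ± 367 to 44018 ± 1468 in siQKI libraries (log2 fold change 1.57, SE 0.04, limma adjusted p = 1.30e-12), where MUC13 was at or near 0, and was lower in HPAF-II libraries (rescaled value 2.12 ± 0.682 against 43.0 ± 0.714), where MUC13 was high. TOLLIP, next to MUC5B, fell from 25252 ± 692 to 17979 ± 731 in siQKI libraries (-0.49, SE 0.05, limma adjusted p = 8.66e-07), and THBS3, close to MUC1, rose from 2261 ± 118 to 3328 ± 311 (0.55, SE 0.09, limma adjusted p = 2.77e-04). In siRBFOX2 libraries HEG1 and THBS3 rose too (1.12 and 0.48, limma adjusted p = 1.10e-10 and 0.00132), and TOLLIP fell (-0.23, limma adjusted p = 0.00129).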

How the data were processed

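RNA was polyA-selected from PANC-1 and HPAF-II cells 48 h after transfection. Per the labels and methods, the authors aligned reads to hg38 with STAR and counted genes of the FAST DB annotation. The submitters' processing notes give STAR 2.7.5a, and the methods list another version of it. The authors then divided the counts of each library by a DESeq2 size factor, for both lines apart, and deposited these signal values (normalised counts), with replicates kept apart. Strand and multi-mapping handling are not given in the sources used here. All values were whole multiples of 1 step per library (tolerance 0.01), but 82.1% to 84.8% of values of 1 to 30 steps were divisible by 3. A step is thus no fragment, count models were not fitted and counting intervals are not given.

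Groups came from the sample labels. The PANC-1 comparisons used limma 3.58.1 (R 4.3.3) on log2(value + 1), with a mean-variance trend, in 1 fit of 9 libraries over 22544 genes with a mean of at least 10, Benjamini-Hochberg adjusted, called at 0.05. The fold change of low genes is understated by the pseudocount. The procedure was tested on simulated data. Lines were compared without a test, on values rescaled to a total of 1000000, with a pseudocount of 0.01, for genes with a mean of at least 10 in either line. Transcript lengths came from GENCODE 29. The longest MUC2 transcript, of 12667 bases, is annotated there as a processed transcript, and those of the other members as protein-coding. Tables and figures were made in Python 3.11.15 with pandas 2.3.3, numpy 2.4.6 and matplotlib 3.10.9.

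The members, lists and tests were chosen with earlier results of these data known. All 10 members are named. From each other list, up to 2 called rises and 2 called falls (mean 50 or more) (between lines, non-overlapping genes with the highest and lowest ratio) could be named, with the 3 genes closest to each called member. Alternatives were other pseudocounts and filters, upper-quartile rescaling, a fit of the compared groups, a replicate block, no trend, and each library left out. A gene beside the mucins that the naming rule covers is not reported here.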

Additional observations from a re-analysis of the deposited data

How the results depend on the processing

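The 4 mucins called in siQKI libraries remained 3 or 4 under the 17 alternatives, MUC1 being the gene lost, and were 3 to 4 with each library left out in turn. MUC6 (limma adjusted p 0.00153 to 0.0172 over the alternatives), MUC16 (4.30e-04 to 0.0262) and MUC5AC (3.63e-04 to 0.00793) stayed past the threshold in every one. In siRBFOX2 libraries MUC5AC stayed called throughout (1.97e-04 to 0.00595), whereas the count of members called fell from 2 to 1 without a mean-variance trend and was 1 to 2 with each library left out. MUC16 was the gene lost. Between siQKI and siRBFOX2 libraries, the count went from 0 to 1, always MUC6, with a pseudocount of 10, a mean of at least 50, upper-quartile rescaling, a fit of only the 2 groups and no mean-variance trend, and was 0 to 1 with each library left out, being 1 without siQKI replicate 1. Single libraries also turned the sign of differences that were not called. Over the libraries left out in turn, MUC4 ranged from -0.96 to 0.26 (siQKI against siCtrl), -0.63 to 1.01 (siRBFOX2 against siCtrl) and -1.30 to 0.38 (siQKI against siRBFOX2), MUC5B from -0.064 to 0.41 (siRBFOX2 against siCtrl) and MUC20 from -0.84 to 0.60 (siQKI against siRBFOX2). The cause was not tested. With the replicate number as a block, 4, 2 and 0 members were called in the 3 comparisons. The numbers did not pair the samples, since the correlation of same-numbered deviations was -0.03 to 0.02, and a library correlated best with its own number in 7 of 18 comparisons.

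Between the lines, 8 to 10 members passed the 2-fold mark, 8 with a pseudocount of 1 or with a 4-fold mark in its place and 10 without PANC-1 siCtrl replicate 2 or HPAF-II replicate 2, MUC6 being the gene gained (log2 ratio 1.01 and 1.04). With a pseudocount of 1 the log2 ratios of MUC2 and MUC6 were 0.53 and 0.14. The count tests with edgeR and DESeq2 that had been planned were not run, because a step of these values is not a fragment. The depth in fragments is unknown, so values of a few units, as for MUC13, MUC17 and MUC2 in PANC-1, are given without an estimate of their counting error, which is largest, relative to the value, at such levels.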
